A study of Mus musculus with 10 samples.

Results

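The heat shock chaperones were examined in the tumor-draining lymph nodes (TDLN) of mice whose breast tumor had been destroyed by heat. The genes were 9 chaperone genes and the transcription factor gene Hsf1, chosen by name as the classical heat shock genes: Hspa1a (ENSMUSG00000091971), Hspa1b (ENSMUSG00000090877), Dnajb1 (ENSMUSG00000005483), Hsph1 (ENSMUSG00000029657), Hsp90aa1 (ENSMUSG00000021270), Hspa8 (ENSMUSG00000015656), Hsp90ab1 (ENSMUSG00000023944), Hspd1 (ENSMUSG00000025980), Hspe1 (ENSMUSG00000073676) and Hsf1 (ENSMUSG00000022556). All 10 were found among the 33585 genes of the series, each under 1 Ensembl identifier, and all 10 were past the filter of a mean of at least 1 FPKM, which kept 13334 genes. FPKM is the number of fragments scaled to transcript length and to the mapped fragments of the library, so levels of different genes are compared per length throughout.

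Female BALB/c mice aged 6 weeks carried 4T1, a mammary carcinoma line of that strain, in the mammary fat pad. The tumor was completely ablated on day 10 in both groups by microwave ablation (MWA), which heats tissue through an inserted antenna. The MWA group (n = 5 mice) was injected with PBS, and the MWA+2DG group (n = 5 mice) with 500 mg/kg of 2-deoxy-D-glucose (2DG), a glucose analog that blocks glycolysis, every 2 days from the day of ablation. Whole nodes were collected on day 15, which is 5 days after ablation, and poly(A) RNA of each was sequenced. Because every mouse was ablated and no node of an untreated mouse is analysed here, the comparison is of 2DG with PBS after ablation and not of ablation with no ablation. It asks whether blocking glycolysis went with another level of the chaperones, and whether the heat inducible genes and the constitutive ones behaved alike.

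Cells answer protein damage by heat through the heat shock factor HSF1, which is held inactive by chaperones, is freed when unfolded proteins draw these away, forms trimers and binds heat shock elements in promoters. Its targets include the inducible HSP70 genes Hspa1a and Hspa1b, the co-chaperone gene Dnajb1, the nucleotide exchange factor gene Hsph1 and the inducible HSP90 gene Hsp90aa1, while the cognate HSP70 gene Hspa8 and the HSP90 gene Hsp90ab1 are made at high levels in resting cells. Hspd1 and Hspe1 encode the mitochondrial chaperonin and its lid, and their mRNA is present at rest and rises with heat. In lymphoid tissue several of these genes are also known to rise when lymphocytes are activated and begin to grow.

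Promoters of inducible genes, and that of Hspe1, are shown because they differ in exact letter matches to the element through which HSF1 acts. RefSeq promoters of the mouse build GRCm38.p6 were held for 6 of the 10 genes (Hspa1a, Hspa1b, Hsph1, Dnajb1, Hspd1 and Hspe1). The heat shock element is a run of inverted GAA units, so each promoter was searched for a pair of head-to-head or tail-to-tail units (GAANNTTC or TTCNNGAA, each being its own reverse complement, so that both strands are read at once). The 250 bases before the transcript start follow from 5′ to 3′ on the strand of the gene, with pairs of units in capitals.
Hspa1a, chr17:34972157-34972406, minus strand: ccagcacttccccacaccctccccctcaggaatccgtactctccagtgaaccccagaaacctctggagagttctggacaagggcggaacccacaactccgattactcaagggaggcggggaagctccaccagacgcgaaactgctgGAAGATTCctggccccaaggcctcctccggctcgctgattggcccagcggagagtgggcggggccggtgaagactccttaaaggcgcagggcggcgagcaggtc
Hspa1b, chr17:34959239-34959488, minus strand: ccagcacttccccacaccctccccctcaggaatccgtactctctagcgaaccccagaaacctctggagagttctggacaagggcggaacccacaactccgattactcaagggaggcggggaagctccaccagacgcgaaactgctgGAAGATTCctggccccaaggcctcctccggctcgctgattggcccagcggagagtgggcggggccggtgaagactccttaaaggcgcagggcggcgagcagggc
Hsph1, chr5:149636337-149636586, minus strand: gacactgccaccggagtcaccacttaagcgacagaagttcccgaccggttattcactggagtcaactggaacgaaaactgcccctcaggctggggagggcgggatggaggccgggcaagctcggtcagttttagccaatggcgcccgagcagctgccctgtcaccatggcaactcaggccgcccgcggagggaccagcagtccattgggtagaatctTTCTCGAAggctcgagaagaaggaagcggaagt
Hspe1, chr1:55087898-55088147, plus strand: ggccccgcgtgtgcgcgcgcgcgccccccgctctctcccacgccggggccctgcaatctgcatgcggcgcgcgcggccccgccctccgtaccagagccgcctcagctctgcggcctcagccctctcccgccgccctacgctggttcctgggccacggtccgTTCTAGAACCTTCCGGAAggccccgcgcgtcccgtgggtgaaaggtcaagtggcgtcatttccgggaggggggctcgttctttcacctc
Dnajb1, chr8:83607925-83608174, plus strand: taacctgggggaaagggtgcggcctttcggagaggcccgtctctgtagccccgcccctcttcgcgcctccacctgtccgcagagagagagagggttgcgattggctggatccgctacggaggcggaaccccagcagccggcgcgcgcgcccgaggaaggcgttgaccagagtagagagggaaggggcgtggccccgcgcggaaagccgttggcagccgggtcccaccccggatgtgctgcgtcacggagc

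A pair of units was found in at least 1 promoter of 5 of the 6 genes, which had 9 listed promoters together. Over the whole table, counted by promoter and not by gene, 12.8% of 32851 promoters held a pair at this length. The promoters of Hspa1a and Hspa1b differed at 3 bases (98.8% identity) and held 1 pair each, which began 104 bases before the start. Hsph1 held 1 pair, 33 bases before the start. In Hspe1, 3 overlapping pairs made a run with 3 or more units in a row, which only 0.466% of all promoters held. Hspd1 is transcribed away from Hspe1, and one of its 2 listed promoters held the same run on the other strand. No pair was found in either promoter listed for Dnajb1. Promoters of Hspa8, Hsp90aa1, Hsp90ab1 and Hsf1 were not in the table. Only exact units were searched, so imperfect ones were not seen. A match describes the letters only, and binding was not measured.

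The 10 genes spanned a wide range of levels in the node. Hsp90ab1 was the highest, at 795 ± 97.1 FPKM (SD, n = 10), and ranked 45 among the 13334 genes. Hspa8 followed at 459 ± 42.6 FPKM, and both lay apart from each other and from Hsp90aa1 in every mouse. Next came Hsp90aa1 at 197 ± 42.9 FPKM, Hspd1 at 130.1 ± 19.8 FPKM, Hspe1 at 90.6 ± 16.5 FPKM and Hsph1 at 58.8 ± 21.8 FPKM. Each of the first 3 of these exceeded the next in at least 9 of 10 mice, although the ranges of neighbours overlapped from Hsp90aa1 downwards. At the low end were Dnajb1 (29.7 ± 9.96 FPKM), Hspa1b (17.7 ± 12.8 FPKM), Hspa1a (11.5 ± 8.58 FPKM) and Hsf1 (8.93 ± 0.701 FPKM). Hspa1a and Hsf1 were not ordered, since Hspa1a was above Hsf1 in only 6 of 10 mice. The constitutive genes thus stood at the top of the order and the inducible HSP70 genes near its bottom.

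Some of these levels depend on how fragments shared between copies of a gene were assigned, and the sources used here do not say how. Of the 150-base stretches of Hspa1a transcripts, 38.1% were identical to a stretch of Hspa1b. Hspa8 shared 20% of its stretches with the gene model Gm15459, which was listed at 607 FPKM on average and was above Hspa8 in 10 of 10 mice, by 1.20 to 1.41 times. Summed with Gm15459, Hspa8 came to 939 to 1250.0 FPKM and was above Hsp90ab1 in 10 of 10 mice, so the order of the top 2 genes rests on that assignment. Hsp90aa1 shared 23.6% of its stretches with Gm12346, listed at 11.7 FPKM, and Hspd1 shared 16.1% with Hspd1-ps3, listed at 3.60 FPKM. Hspe1 shared 6.64% with AC117239.2, which was listed at 45.5 FPKM. Summed with it, Hspe1 came to 136 FPKM on average and was above Hspd1 in 7 of 10 mice, so the order of those 2 genes rests on the assignment as well. No stretch of Dnajb1, Hsph1, Hsp90ab1 or Hsf1 was found in another gene. Gm15459, Gm12346, Hspd1-ps3 and AC117239.2 were picked out after their values were seen.

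The mice of replicates 1 and 2 of both groups stood apart from those of replicates 3 to 5. This split was found in the data and is named by no label. Component 1 of a principal component analysis took 36.4% of the variance and placed the 4 mice of replicates 1 and 2 between -23.4 and -18.9 and the 6 mice of replicates 3 to 5 between -1.58 and 33.5. Because each group had 2 mice on one side and 3 on the other, the comparison of MWA+2DG with MWA is given below both over all mice and within these 2 sets of replicates.

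Between MWA+2DG and MWA, none of the 10 genes passed the test. By limma's unadjusted rule (P below 0.05 and a log2 fold change beyond 0.25), 0 of 10 were called, where 2.82% of all 13334 genes were (127 higher and 249 lower in MWA+2DG, and 328 higher and 159 lower once each library was rescaled to the same total). At an adjusted p below 0.05, limma called 0 of 10 genes and 0% of all genes. With no fold threshold, 0 of 10 genes and 567 of all genes had an unadjusted P below 0.05. No gene of the 10 had groups that did not overlap, against 0.802% of all genes. The log2 fold change, MWA+2DG minus MWA on the log2(FPKM + 1) scale, was negative for 8 genes and positive for 2, and its median was -0.11, beside 0.01 over all tested genes. Whole nodes were measured, so fewer cells of a type and less RNA per cell cannot be told apart in any of these values.

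**Figure D1:**
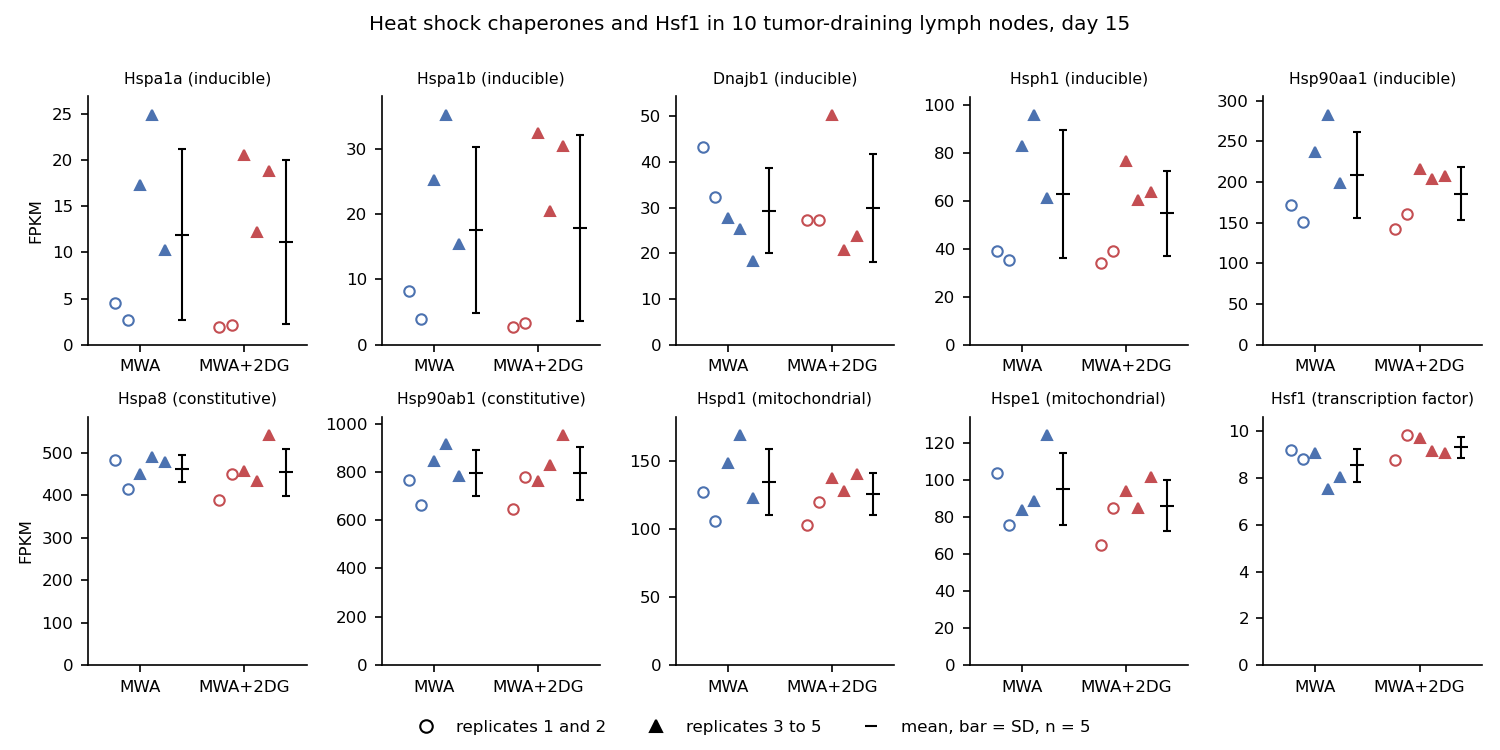
FPKM (vertical axes, from 0) of each gene in each node by group, with circles for replicates 1 and 2, triangles for replicates 3 to 5, and the mean with its SD (n = 5) beside each group. The 2 groups overlap in all 10 panels, while for Hspa1a, Hspa1b, Hsph1 and Hsp90aa1 every triangle lies above every circle.

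Among the inducible genes, Hspa1a and Hspa1b encode HSP70 proteins that differ by very few residues, and they varied most between mice. Hspa1a was at 4.48, 2.66, 17.4, 24.9 and 10.3 FPKM in MWA replicates 1 to 5 and at 1.89, 2.08, 20.6, 12.2 and 18.8 FPKM in MWA+2DG replicates 1 to 5. Hspa1b was at 8.18, 3.99, 25.3, 35.2 and 15.4 FPKM in the MWA mice and at 2.72, 3.30, 32.4, 20.4 and 30.5 FPKM in the MWA+2DG mice. In both genes the groups overlapped over almost their whole range, and in both groups replicates 1 and 2 were the low mice. The highest mouse exceeded the lowest 13.2 times for Hspa1a and 13.0 times for Hspa1b. Hspa1b was above Hspa1a in every mouse, by 1.41 to 1.83 times. The log2 fold change was -0.22 (SE 0.72, limma adjusted p = 0.996) for Hspa1a and -0.20 (SE 0.75, limma adjusted p = 0.996) for Hspa1b. Their 95% confidence intervals ran from -1.80 to 1.36 and from -1.85 to 1.46, and both intervals include changes of more than 2 times either way. Summed to 1 gene, the pair had a log2 fold change of -0.24 (SE 0.78).

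Dnajb1 encodes an HSP40 co-chaperone that delivers clients to HSP70 and starts its ATP cycle. It was at 43.2, 32.3, 27.7, 25.4 and 18.3 FPKM in the MWA mice and at 27.4, 27.4, 50.3, 20.7 and 23.9 FPKM in the MWA+2DG mice. Replicate 3 of MWA+2DG was the highest of all 10, and the other 4 mice of its group lay within 20.7 to 27.4 FPKM. The group means were 29.4 ± 9.24 and 29.9 ± 11.7 FPKM (SD, n = 5 each), with a log2 fold change of 0.01 (SE 0.25, limma adjusted p = 0.999). Dnajb1 did not have the low values in replicates 1 and 2 that marked the other inducible genes.

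Hsph1 encodes HSP110, which exchanges the nucleotide of HSP70 during refolding. It was at 38.9, 35.2, 83.0, 95.8 and 61.1 FPKM in the MWA mice and at 34.1, 38.9, 76.6, 60.5 and 63.7 FPKM in the MWA+2DG mice. Both groups had 2 mice under 40 and 3 mice above 60 FPKM. The log2 fold change was -0.15 (SE 0.31, 95% confidence interval -0.84 to 0.54).

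Hsp90aa1 encodes the inducible cytosolic HSP90. It was at 172, 151, 238, 283 and 199 FPKM in the MWA mice and at 143, 160.2, 216, 203 and 207 FPKM in the MWA+2DG mice. The 2 highest mice belonged to the MWA group, and the groups overlapped. The log2 fold change was -0.15 (SE 0.18, limma adjusted p = 0.996).

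The constitutive genes varied far less. Hspa8, the HSP70 that resting cells use for folding and for uncoating clathrin, was at 483, 414, 451, 490.0 and 478 FPKM in the MWA mice and at 389.8, 449.8, 456, 435 and 542 FPKM in the MWA+2DG mice. Hsp90ab1, the HSP90 that serves kinases and steroid receptors at rest, was at 768, 662, 844, 917 and 785 FPKM in the MWA mice and at 648, 781, 762, 828 and 953 FPKM in the MWA+2DG mice. For both genes the lowest and the highest mouse were in the MWA+2DG group, so the MWA values lay inside the MWA+2DG range. Over all mice the highest value exceeded the lowest 1.39 times for Hspa8 and 1.47 times for Hsp90ab1. The log2 fold changes were -0.03 (95% confidence interval -0.24 to 0.17) and -0.004 (-0.26 to 0.25), and both turned positive, to 0.03 and 0.06, when each library was rescaled to the same total.

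Hspd1 encodes HSP60, the barrel in which mitochondrial proteins fold, and Hspe1 encodes HSP10, its lid. Hspd1 was at 127, 106, 148, 169 and 123 FPKM in the MWA mice and at 103, 119.8, 138, 128 and 140.5 FPKM in the MWA+2DG mice. Hspe1 was at 104, 75.6, 83.6, 88.7 and 124 FPKM in the MWA mice and at 65.0, 84.6, 94.3, 84.9 and 102 FPKM in the MWA+2DG mice. In both genes the lowest mouse was MWA+2DG replicate 1 and the highest was an MWA mouse, replicate 4 for Hspd1 and replicate 5 for Hspe1. The log2 fold changes were -0.09 (SE 0.13) and -0.14 (SE 0.15), both at a limma adjusted p of 0.996. The chaperonin and its lid, although transcribed from 1 shared promoter region, did not keep a fixed ratio, and Hspd1 stood at 0.987 to 1.902 times Hspe1, or at 0.637 to 1.25 times Hspe1 summed with AC117239.2.

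Hsf1, the factor that drives the inducible genes, was low and even. It was at 9.22, 8.81, 9.08, 7.53 and 8.05 FPKM in the MWA mice and at 8.77, 9.84, 9.74, 9.18 and 9.08 FPKM in the MWA+2DG mice. Its log2 fold change of 0.12 (SE 0.07) had the smallest unadjusted P of the 10 genes, 0.134 by limma, at an adjusted p of 0.996. Activation of HSF1 takes place mainly on the protein, which was not measured.

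**Figure D2:**
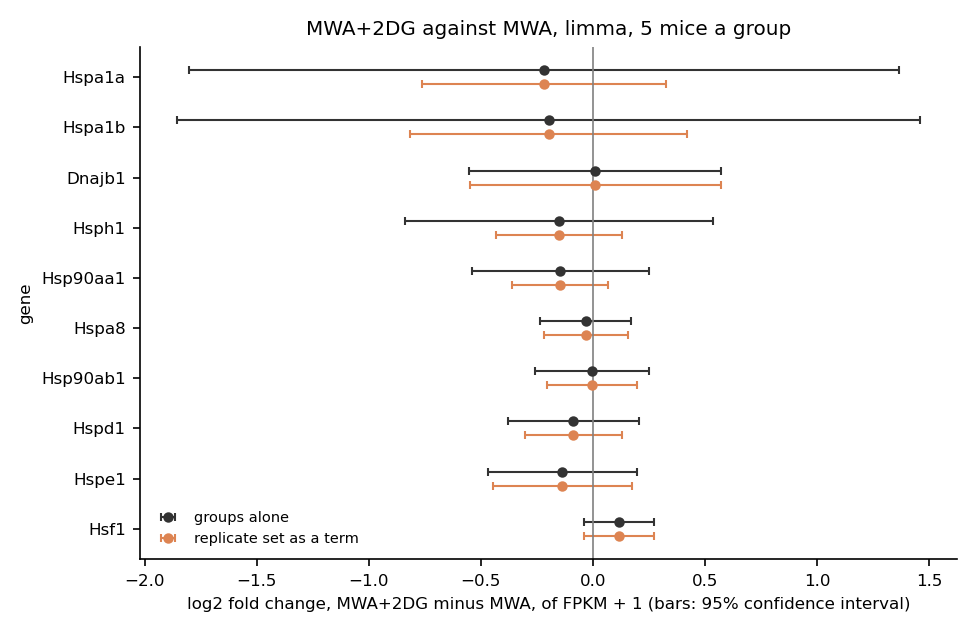
Log2 fold change of each gene, MWA+2DG minus MWA (horizontal axis, with 95% confidence intervals from limma, 5 mice a group), fitted with the groups alone and with the replicate set as a term. All 20 intervals include 0, and the interval of Hspa1a narrowed from -1.80 to 1.36 to -0.76 to 0.33 with the term. The replicate sets were recognised from these same expression values.

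A term for the replicate set narrowed the errors. It could not move the estimates, since each group had 2 mice in one set and 3 in the other. The sets were recognised from these same expression values, so the narrower errors are a description. The SE fell from 0.72 to 0.24 for Hspa1a, from 0.31 to 0.13 for Hsph1 and from 0.18 to 0.10 for Hsp90aa1, while that of Dnajb1 stayed at 0.25. The smallest adjusted p of the 10 genes was then 0.886 by limma.

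Within replicates 1 and 2 alone (2 mice a group), the unadjusted rule called 2 of 10 genes, Hspa1a and Dnajb1, against 4.96% of all genes. Hspa1a had a log2 fold change of -0.59 (SE 0.21, limma adjusted p = 0.768) and Dnajb1 of -0.43 (SE 0.16, limma adjusted p = 0.768). Both MWA+2DG mice lay below both MWA mice in each of these genes, and Hspa1b had the same order, with a log2 fold change of -0.76 (SE 0.31, adjusted p = 0.768 by limma). Within replicates 3 to 5 alone (3 mice a group), 0 of 10 genes were called, against 4.15% of all genes. There the log2 fold changes of Hspa1a, Hspa1b and Dnajb1 were 0.03 (SE 0.32), 0.18 (SE 0.30) and 0.31 (SE 0.33). The difference between the sets was itself tested as an interaction, and no gene of the 10 passed it (adjusted p = 0.9999 by limma for Hspa1a, Hspa1b and Dnajb1).

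Inducible and constitutive genes were then set against each other within each mouse. A scale factor common to the library drops out of the FPKM ratios below, but not fully out of a difference of log2(FPKM + 1). The mean log2(FPKM + 1) of the 5 inducible cytosolic genes minus that of Hspa8 and Hsp90ab1 was -4.11 ± 0.51 in MWA and -4.23 ± 0.68 in MWA+2DG (SD, n = 5 each). The difference between the groups, -0.12, was below the spread between mice and, as a score over chosen genes, was given no test. It was -0.33 within replicates 1 and 2, 0.02 within replicates 3 to 5, and -0.14 over all mice with each library rescaled to the same total.

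Hsp90aa1 amounted to 22.4, 22.8, 28.2, 30.8 and 25.4% of Hsp90ab1 in the MWA mice and to 22.1, 20.5, 28.3, 24.5 and 21.8% in the MWA+2DG mice. The inducible HSP90 was thus the smaller share in all 10 nodes, and the groups overlapped. The log2 ratio was lower in MWA+2DG by 0.14, from -1.96 ± 0.20 to -2.10 ± 0.18, with a two-sided exact permutation p of 0.238 (0.476 adjusted over the 2 ratios) and 0.117 with labels exchanged only within the replicate sets.

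Hspa1a and Hspa1b together amounted to 2.62, 1.61, 9.46, 12.3 and 5.37% of Hspa8 in the MWA mice and to 1.18, 1.20, 11.6, 7.51 and 9.11% in the MWA+2DG mice. All 4 mice under 3% were replicates 1 and 2. With Hspa8 summed with Gm15459 the shares ran from 0.490 to 1.18% in replicates 1 and 2 and from 2.28 to 5.28% in replicates 3 to 5. The log2 ratio was -4.37 ± 1.23 in MWA and -4.62 ± 1.64 in MWA+2DG, and the difference of -0.25 had a two-sided exact permutation p of 0.722, also after adjustment over the 2 ratios, and of 0.417 within the replicate sets. Its direction was not stable, since it was 0.20 without MWA+2DG replicate 1 or replicate 2 and 0.09 without MWA replicate 4.

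**Figure D3:**
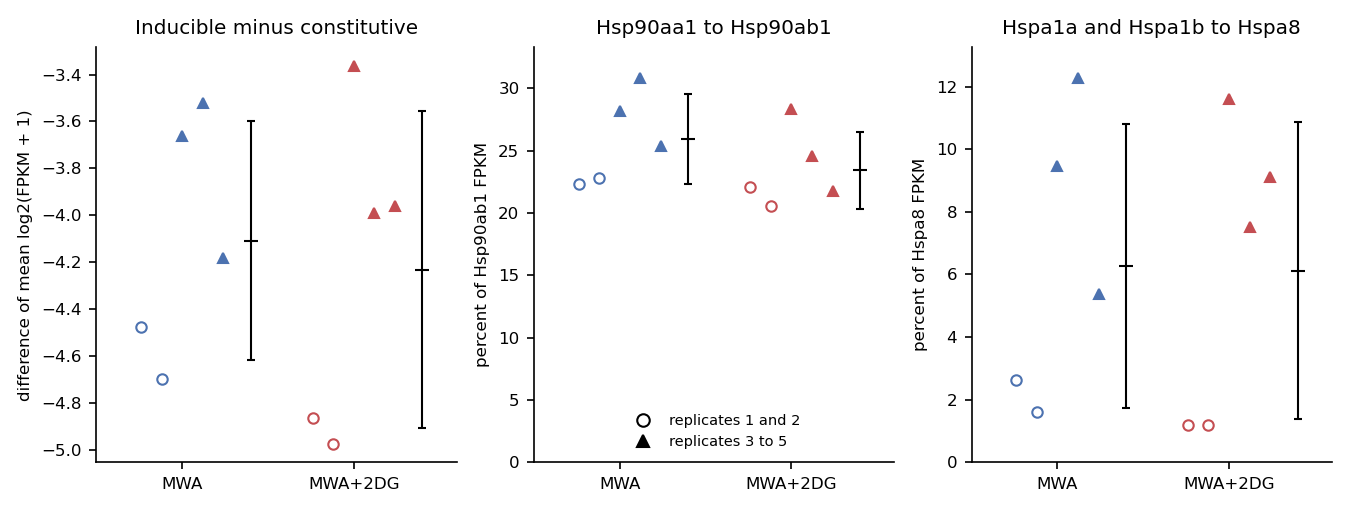
Inducible against constitutive genes in each node by group: the difference of mean log2(FPKM + 1), Hsp90aa1 as percent of Hsp90ab1, and Hspa1a plus Hspa1b as percent of Hspa8 (circles, replicates 1 and 2; triangles, replicates 3 to 5; mean with SD, n = 5). The groups overlap in each panel, and the share of inducible HSP70 runs from 1.18 to 2.62% in the circles and from 5.37 to 12.3% in the triangles, which becomes 0.490 to 1.18% and 2.28 to 5.28% when Hspa8 is summed with Gm15459.

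The larger contrast among these genes lay between the sets of replicates. It is described here with no test, since the sets were recognised from the expression values. Hspa1a, Hspa1b, Hsph1 and Hsp90aa1, 4 of the 10 genes, were higher in every mouse of replicates 3 to 5 than in every mouse of replicates 1 and 2, where 2.04% of all genes were. None of the 10 was lower in every such mouse, where 7.8% of all genes were. Hspa1a was at 1.89 to 4.48 FPKM in the 4 mice of replicates 1 and 2 and at 10.3 to 24.9 FPKM in the 6 mice of replicates 3 to 5, a ratio of means of 6.26. For Hspa1b the ranges were 2.72 to 8.18 and 15.4 to 35.2 FPKM, with a ratio of 5.84. Hsph1 was 2.00 times and Hsp90aa1 1.43 times higher in replicates 3 to 5. By the log2 difference of the set means, Hspa1b ranked 27 and Hspa1a 28 among 13334 genes, Hsph1 173 and Hsp90aa1 451.

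The remaining 6 genes overlapped between the sets. The ratios of means were 1.10 for Hspa8, 1.19 for Hsp90ab1, 1.24 for Hspd1, 1.17 for Hspe1 and 0.958 for Hsf1. Dnajb1 stood at 0.851, so it was the 1 inducible gene whose mean was not higher in replicates 3 to 5. The inducible minus constitutive difference ran from -4.97 to -4.48 in replicates 1 and 2 and from -4.18 to -3.36 in replicates 3 to 5, without overlap.

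**Figure D4:**
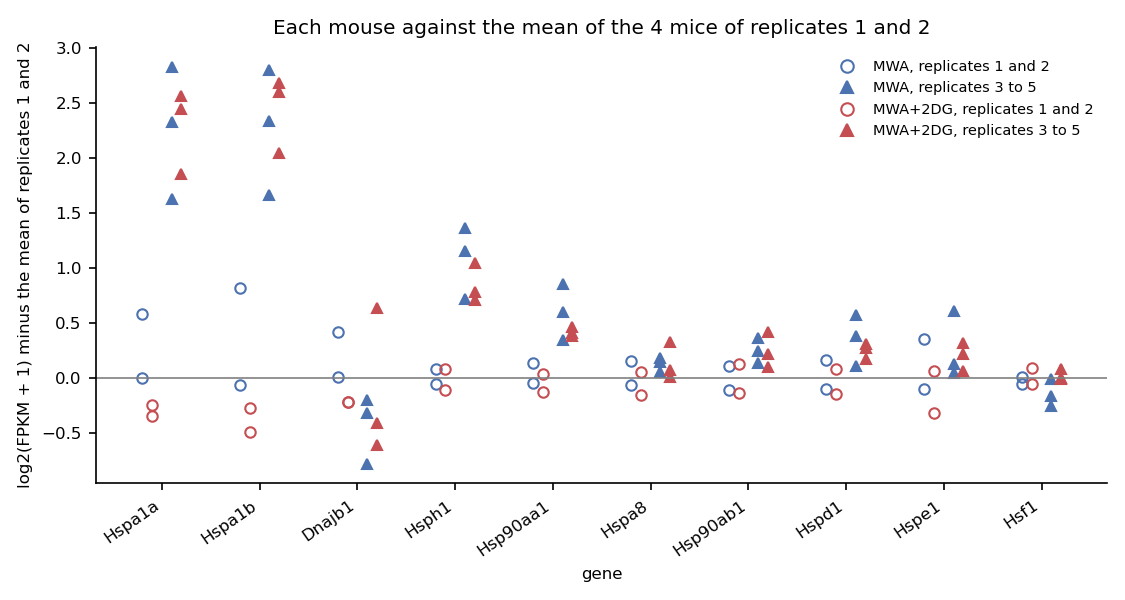
Log2(FPKM + 1) of each gene in each mouse minus the mean of the 4 mice of replicates 1 and 2 (vertical axis), with circles for replicates 1 and 2 and triangles for replicates 3 to 5. Hspa1a and Hspa1b lie about 1.6 to 2.8 units above 0 in all 6 mice of replicates 3 to 5, Hsph1 and Hsp90aa1 lie less far above it, and in the other 6 genes triangles and circles overlap.

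Liver transcripts moved with the same sets. Of the 6 genes of a liver list, 5 (Alb, Apoa1, Apoa2, Ttr and Fgb) were higher in every mouse of replicates 3 to 5, where 2.04% of all genes were. Alb, which encodes serum albumin, was listed at 0 to 0.0486 FPKM in replicates 1 and 2 and at 35.1 to 102 FPKM in replicates 3 to 5. Apoa2 and Fgb were listed at 0 in all 4 mice of replicates 1 and 2. Serpina1a, at 22.0 to 27.2 FPKM in replicates 1 and 2 and 21.8 to 30.4 FPKM in replicates 3 to 5, did not follow. The list summed to 22.1 to 27.2 FPKM in replicates 1 and 2 and to 78.0 to 180.3 FPKM in replicates 3 to 5. Its part in the higher inducible chaperones was not tested. Within replicates 3 to 5, the mouse with the least Alb, MWA+2DG replicate 3 at 35.1 FPKM, had 53.0 FPKM of Hspa1a plus Hspa1b, the second highest sum. MWA replicate 4 had both the most Alb, at 102 FPKM, and the highest sum, at 60.2 FPKM. MWA replicate 5 had the second most Alb, at 85.8 FPKM, and the lowest sum, at 25.7 FPKM. Alb and the sum were at 78.5 and 42.6 FPKM in MWA replicate 3. They were at 68.1 and 32.7 FPKM in MWA+2DG replicate 4 and at 61.5 and 49.35 FPKM in MWA+2DG replicate 5. Immediate early genes such as Fos and Jun, which cells switch on within minutes of a stimulus, did not separate the sets in any of 13 tested genes. With only 2.04% of all genes higher and 7.8% lower in every such mouse, 0 of 13 says little about these genes. Of the 71 tested markers of other cell types, 5 were lower and 2 higher in every mouse of replicates 3 to 5. These counts lie near the shares over all genes, 7.8% lower and 2.04% higher. The lower ones were Cxcl13 of follicular stroma, at 254 to 412 FPKM in replicates 1 and 2 and 168 to 227 FPKM in replicates 3 to 5, Pecam1 of endothelium, at 45.3 to 46.3 and 27.6 to 32.0 FPKM, Cd3g of T cells, and Flt3 and Clec9a of dendritic cells. The higher ones were the collagen gene Col1a1, at 9.44 to 16.1 and 18.1 to 29.0 FPKM, and Blk of B cells. These genes were named after their values were seen, and their part in the chaperone levels was not tested.

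**Figure D5:**
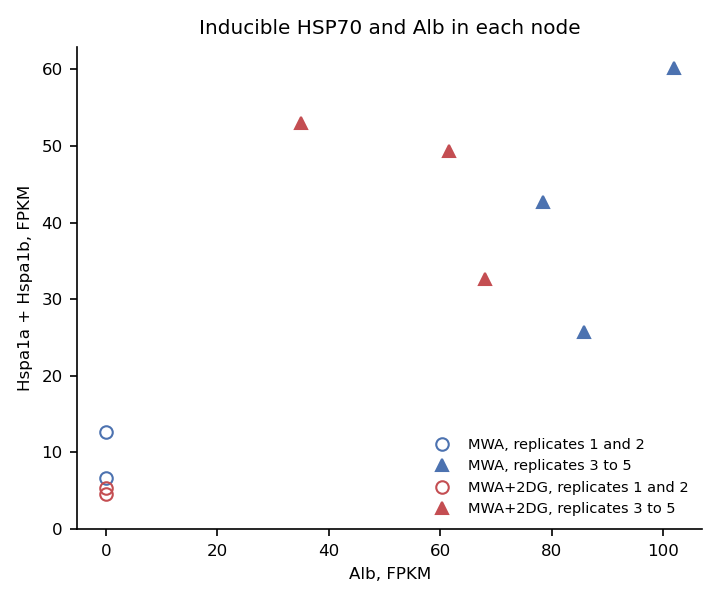
Summed FPKM of Hspa1a and Hspa1b (vertical axis) against FPKM of Alb (horizontal axis) in each of 10 nodes. The 4 mice of replicates 1 and 2 lie at 4.60 to 12.7 FPKM of HSP70 with Alb near 0, and the 6 mice of replicates 3 to 5 at 25.7 to 60.2 FPKM with Alb from 35.1 to 102 FPKM.

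Within the 6 mice of replicates 3 to 5, the 8 other genes were correlated with the summed Hspa1a and Hspa1b on the log2 scale. The largest Pearson coefficient was that of Hspd1 (Pearson's r = 0.838, exact permutation p = 0.0361, adjusted over 8 relations p = 0.289; Spearman's rho = 0.771, exact permutation p = 0.103), and without the 2 mice farthest from the median r was 0.515. Hsph1 had r = 0.741 (exact permutation p = 0.0958, rho = 0.771) and Dnajb1 r = 0.639 (exact permutation p = 0.161, rho = 0.714), with r = 0.396 and 0.0976 without those 2 mice. Hsp90aa1 had the largest Spearman coefficient (rho = 0.829, exact permutation p = 0.0583), with r = 0.686 (exact permutation p = 0.119) and 0.496 without those mice. None of the 8 relations passed the adjustment.

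The profiles most like each gene were ranked by Pearson's r over the 10 mice after subtracting each group's mean, as a description of points that share the split between replicate sets. Hsph1 and Hsp90aa1 were nearest to each other among the 10 genes (r = 0.982), and Hspa1a to Hspa1b (r = 0.996). Outside the 10 genes, Gm12346, which shares sequence with Hsp90aa1, was the nearest to Hsp90aa1 (r = 0.987) and among the 3 nearest to Hspa1a, Hspa1b, Hsph1 and Hspd1. Mfap1a, a gene of pre-mRNA splicing, was the nearest to Hsph1 (r = 0.977). Dnajb1 had another profile, nearest to Trappc6b (r = 0.956), Mob4 (r = 0.952) and Ccdc117 (r = 0.949), and its r with the other chaperones lay between -0.32 and -0.01. Hsf1 was closest to Plk3 (r = 0.920) and Hspa8 to Phc2 (r = 0.949).

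The rest of the chaperone network gave few calls between MWA+2DG and MWA. Of 105 other tested chaperone genes, 0 were higher and 2 lower by the unadjusted rule, which is 1.905% beside 2.82% of all genes, and 0 passed the adjustment. Their median log2 fold change was -0.02, with 42 positive and 63 negative. Hspa2, an HSP70 known for its role in germ cells, was lower, at 6.45 ± 0.995 FPKM in MWA and 4.39 ± 0.783 FPKM in MWA+2DG (log2 fold change -0.47, SE 0.13, limma adjusted p = 0.996). Bag2, which inhibits the ubiquitin ligase CHIP, was lower, at 1.76 ± 0.284 FPKM and 1.27 ± 0.394 FPKM (log2 fold change -0.30, SE 0.12, limma adjusted p = 0.996). Neither call holds once all genes are taken into account.

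By family, 19 further heat shock factor targets gave 0 calls, with 7 positive and 12 negative log2 fold changes and the smallest P for Mrpl18 (-0.17, SE 0.10). Of the 14 subunits of the TRiC chaperonin and prefoldin, which fold actin and tubulin, 13 were on the negative side, at a median log2 fold change of -0.09, and 0 were called. The smallest P was that of Cct7 (-0.15, SE 0.09), followed by Cct6a (-0.10, SE 0.06). The median over all tested genes was 0.01, and 0.07 with each library rescaled to the same total. The sign of values this small can therefore turn with the scaling. The 26 HSP40 genes were split into 14 positive and 12 negative with 0 calls, led by Dnajc9 (-0.20, SE 0.10) and Dnajc7 (0.17, SE 0.11). Among 10 tested genes of the HSP70 family, Hspa14 (-0.18, SE 0.08) came next to Hspa2 and missed the fold threshold.

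The 25 HSP70 and HSP90 co-chaperones had 10 positive and 15 negative values with Bag2 as the 1 call, and Fkbp5, a glucocorticoid target, was at 0.23 (SE 0.16). The 15 chaperones of the endoplasmic reticulum gave 0 calls, with Dnajb11 (-0.08, SE 0.08) and Canx (-0.06, SE 0.07) nearest to one. Mitochondrial folding and protease genes numbered 11, with 0 calls, and were led by Grpel1 (-0.20, SE 0.09) and Lonp1 (0.08, SE 0.07). Of 4 tested small heat shock protein genes, 0 were called (Cryab -0.03, SE 0.08, and Hspb8 0.02, SE 0.17). The heat shock factor genes Hsf4 (0.13, SE 0.13) and Hsf2 (0.05, SE 0.08) were both near 1 FPKM. For each list the examples given are those with the lowest limma P, with their log2 fold changes and SE.

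Across the replicate sets, 6 of these 105 genes (5.71%) were higher in every mouse of replicates 3 to 5, beside 2.04% of all genes, and 7 (6.67%) were lower in every such mouse, beside 7.8% of all genes. The lower ones were Dnajc8, Dnajc14, Dnajc19, Dnajc21, Cdc37l1, Bag5 and Pfdn4. Of the 6 higher ones, Dnaja4 and St13 were outside the heat shock factor list, and 4 of the 6 were heat shock factor targets out of 19. These 4 were Ahsa1, Ahsa2, Stip1 and Hspa4l, and all 13 genes are named after their values were seen. Ahsa1, which activates the ATPase of HSP90, was at 35.1 to 44.7 FPKM in replicates 1 and 2 and at 48.7 to 54.6 FPKM in replicates 3 to 5. Stip1, which joins HSP70 to HSP90, was at 122 to 144 and 150.2 to 196 FPKM. Bag3 and Hspb1, which heat also raises, overlapped between the sets, at 6.86 to 7.65 against 7.26 to 13.9 FPKM and at 8.15 to 12.7 against 10.95 to 17.7 FPKM.

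Lists of cell markers outside the chaperones held some calls between MWA+2DG and MWA. Markers of B cells and T cells were measured in all 10 nodes, with summed levels of 1342 to 1716 FPKM for 8 B cell genes and of 350 to 545 FPKM for 10 T cell genes. By the unadjusted rule, which called 2.82% of all genes, 6 of 8 genes of dividing cells were lower in MWA+2DG. Among them were Cdk1 (log2 fold change -0.38, SE 0.09) and Ccnb2 (-0.44, SE 0.14). The list summed to 129 to 174 FPKM in MWA and 86.0 to 139 FPKM in MWA+2DG. All 10 T cell genes were on the positive side, and Cd8a was called (0.28, SE 0.11). Of the 6 neutrophil genes, 3 were tested and S100a9 (-1.61, SE 0.52) and S100a8 (-1.43, SE 0.54) were called lower. Of the 6 myeloid genes, Lyz2 (-0.47, SE 0.16) and Csf1r (-0.30, SE 0.13) were also called lower, while Cd68 (0.10) and Cd14 (0.06) were on the positive side. Xbp1 (-0.39, SE 0.15) and Mzb1 (-0.50, SE 0.20) of the 6 plasma cell genes were called lower as well. None of these calls passed limma's adjustment (adjusted p = 0.996 for each). Their part in the levels of the chaperones was not tested.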

How the data were processed

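Poly(A) RNA of whole TDLN from 10 mice (MWA, n = 5, and MWA+2DG, n = 5) was sequenced as 150-base read pairs. Per the labels, the libraries were stranded and carried molecular identifiers, and the submitters' processing notes name cutadapt 1.9, HISAT2 2.0.4, UMI-tools, StringTie 1.3.4d and the build mm9. The authors deposited 1 table of FPKM per mouse, the unit of all values used, normalised by transcript length and library. Read counts cannot be recovered from FPKM, so depth is unknown and no counting interval is given. Summed FPKM ran from 312143 to 359984 per library.

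Of 33643 Ensembl identifiers, 33541 were matched to symbols, and identifiers sharing 1 of 57 symbols were summed. The genes whose mean reached 1 FPKM were tested with limma 3.58.1 (R 4.3.3) on log2(FPKM + 1), and P was adjusted by Benjamini-Hochberg over all 13334 genes. A fold change on this scale understates that of low genes. Genes were called by the study's limma rule, an unadjusted P below 0.05 with a log2 fold change beyond 0.25, and at an adjusted p below 0.05. Ratios within a mouse were compared by exact permutation of the group labels, two-sided, which cannot go below 0.00794 over all mice or 0.0167 within replicate sets. On simulated data with 200 changed genes at a log2 fold change of 1, the MWA+2DG against MWA comparison over 13334 genes recovered 181 changed genes and called 4 unchanged ones. Changed genes were picked at random, and noise was drawn independently from the spread of each gene, without the replicate sets. This recovery therefore need not hold for widely varying genes such as Hspa1a and Hspa1b.

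All 10 genes are named, with the called genes and the 2 of smallest P in each list, and the 3 genes of most similar profile, except a gene that is not reported here. The genes and lists were chosen with earlier results of these data known. Replicate numbers were not used to pair the mice. The labels tie them to no shared cage or day, and the deviations of same-numbered mice correlated at 0.0334 to 0.501, all positive but not all above 0.1. The split between replicates 1 and 2 and replicates 3 to 5 also runs along the numbers. The labels do not say more of how mice were housed or processed, so p-values measure the spread between these mice. Promoters and shared stretches were read from GRCm38 references, whose coordinates are not those of mm9. Alternatives are given in the closing section.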

Additional observations from a re-analysis of the deposited data

Results flagged for a closer look

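Dnajb1 in MWA+2DG replicate 3, at 50.3 FPKM, was far above the remaining MWA+2DG mice, which were at 20.7 to 27.4 FPKM. The gap to the nearest mouse was 0.773 of the group's range, above Dixon's critical value of 0.71 for 5 samples. Of 26 groups of values checked in this way, 1 was so marked, and chance marks about 1 in 20 groups. Without that mouse the log2 fold change of Dnajb1 was -0.19.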

How the results depend on the processing

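None of the 10 genes was called under alternatives that left out each mouse, changed the pseudocount or the filter, rescaled the libraries, used limma-trend or an exact Wilcoxon test, dropped the fold threshold, or added a term for the replicate number or the replicate set. Replicates 1 and 2 alone, chosen with replicates 3 to 5 alone after seeing the data, called 2 of the 10 genes. The count over all genes was 376, and it was 230 at a filter of 5 FPKM, 210 by the exact Wilcoxon test, 567 with no fold threshold, 661 in replicates 1 and 2 alone, 554 in replicates 3 to 5 alone, and 280 to 513 without each mouse in turn. With the replicate block, 449 genes were called (376 without it) and 0 of the 10. The block moved no call of the 10 genes or of the ratios, where its exact p was 0.125 for Hsp90aa1 to Hsp90ab1 and 0.5 for Hspa1a and Hspa1b to Hspa8. Only replicate 2 correlated best with its own number. The direction was lost for small values. In replicates 3 to 5 alone, the log2 fold change was 0.0271 for Hspa1a, 0.18 for Hspa1b and 0.00907 for Hspa8, and the log2 ratio of Hspa1a and Hspa1b to Hspa8 was 0.12. In replicates 1 and 2 alone, that of Dnajb1 was -0.43. Rescaling to 1000000 gave 0.0317 for Hspa8 and 0.0602 for Hsp90ab1, and quantile normalization gave 0.0761 and 0.0861. Leaving out 1 mouse moved the log2 fold change within -0.59 to 0.18 for Hspa1a, -0.59 to 0.25 for Hspa1b, -0.19 to 0.16 for Dnajb1, -0.33 to 0.0258 for Hsph1, -0.0976 to 0.0210 for Hspa8 and -0.0722 to 0.0668 for Hsp90ab1, and the ratio of Hspa1a and Hspa1b to Hspa8 within -0.64 to 0.20. The other 4 genes and the log2 ratio of Hsp90aa1 to Hsp90ab1 (-0.21 to -0.08) kept their sign in all alternatives run. The inducible minus constitutive difference lay within -0.34 to 0.06, which is less than the spread between mice. Depth could not be judged from FPKM. The causes of these shifts were not tested.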
